A study of Mus musculus with 6 samples.

Results

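Lymphocyte homing receptors are described here in mouse pre-B leukaemia cells: 7 chemokine receptor genes (Cxcr4, Cxcr5, Cxcr3, Ccr6, Ccr7, Ccr9 and Ccr2) and 3 sphingosine-1-phosphate receptor genes (S1pr1, S1pr3 and S1pr4). They were chosen by function, as receptors that hold lymphocytes in the bone marrow, let them out or guide them to other tissues. Earlier results of these data were known at that choice, so their number of calls is not that of a blindly chosen set. All 10 were found among the 19938 genes that the array annotation names through a probe set of exactly 1 gene. Each had a single such probe set, and no filter on low values was used, so all 10 were tested.

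The cells were pre-B cells transformed by BCR-ABL1, a fusion tyrosine kinase that drives acute lymphoblastic leukaemia, from 129SvEv x C57BL/6J mice with an age of 5 weeks. In both groups the Sox4 alleles were floxed (Sox4fl/fl), and the series text gives RNA extraction 24 h after 4OHT. The ERT2 group (3 samples) carried the hormone-binding domain alone, and the Cre-ERT2 group (3 samples) carried the recombinase fused to it, which 4OHT activates. No sample combined Cre-ERT2 with unfloxed Sox4 or left out 4OHT, so loss of Sox4 and recombinase activity cannot be told apart. The labels do not say whether the 3 samples of a group were separate cultures, clones or animals. The p-values thus set a group difference against the scatter of these samples only, and that scatter may be technical.

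Homing receptors are G protein-coupled receptors that steer migrating cells along gradients of their ligands. In the marrow, CXCR4 binds CXCL12 made by stromal cells and keeps B-cell precursors in place, while S1PR1 senses the sphingosine-1-phosphate of blood and lets cells leave. CCR7, CXCR5 and CCR6 guide lymphocytes into and within lymph nodes and mucosal lymphoid tissue, and CXCR3, CCR9 and CCR2 are known for recruitment to inflamed tissue, gut and sites of monocyte entry.

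Values are RMA intensities on a linear scale, and differences are Cre-ERT2 minus ERT2 on the scale of log2(intensity + 1), with limma's moderated standard error. A gene was called when limma's p-value, adjusted by Benjamini-Hochberg over all 35556 probe sets, was under 0.05. Intensities of different probe sets depend on the probes and are not compared between genes. Array medians ranged from 273 to 279, and precision is limited by having 3 arrays a group. Arrays are named E1 to E3 (ERT2) and C1 to C3 (Cre-ERT2) by replicate number where 1 is left out. Sox4 read 1459, 1372 and 1237 on the ERT2 arrays and 599, 541 and 499 on the Cre-ERT2 arrays, which puts the Cre-ERT2 mean at 40.3% of the ERT2 mean (difference -1.31, SE 0.0912, limma adjusted p = 0.000434). Whether the Sox4 probe set covers the floxed region was not analysed here. The pre-B markers Cd79a, Cd79b, Igll1 and Ebf1, 4 of 9 measured, read between 10223 and 19083 on all arrays. Of the other 5, Il7r fell by 0.93 (limma adjusted p = 0.000118) and Rag1 by 0.89 (0.00595), and Pax5 was lower on every Cre-ERT2 array without being called (-0.22, 0.0552).

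The homing receptors moved in both directions. The sphingosine receptors S1pr3 and S1pr1 fell, the chemokine receptors Ccr6 and Ccr7 rose, and the other 6, Cxcr4 among them, were not called. Thus 2 of 10 were higher, where 4.38% of all genes were, and 2 of 10 were lower, where 3.72% were. Over all genes 8.10% were called in either direction, and 20.1% had an unadjusted p under 0.05. The median difference of the 10 was 0.10, against 0.02 over all genes. All 3 Cre-ERT2 arrays lay above all 3 ERT2 arrays in 4 receptors (17.5% of all genes) and below them in 2 (10.8% of all genes). In those 6 the exact two-sided permutation test gave p = 0.1, the smallest that 3 against 3 allows.

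**Figure D1:**
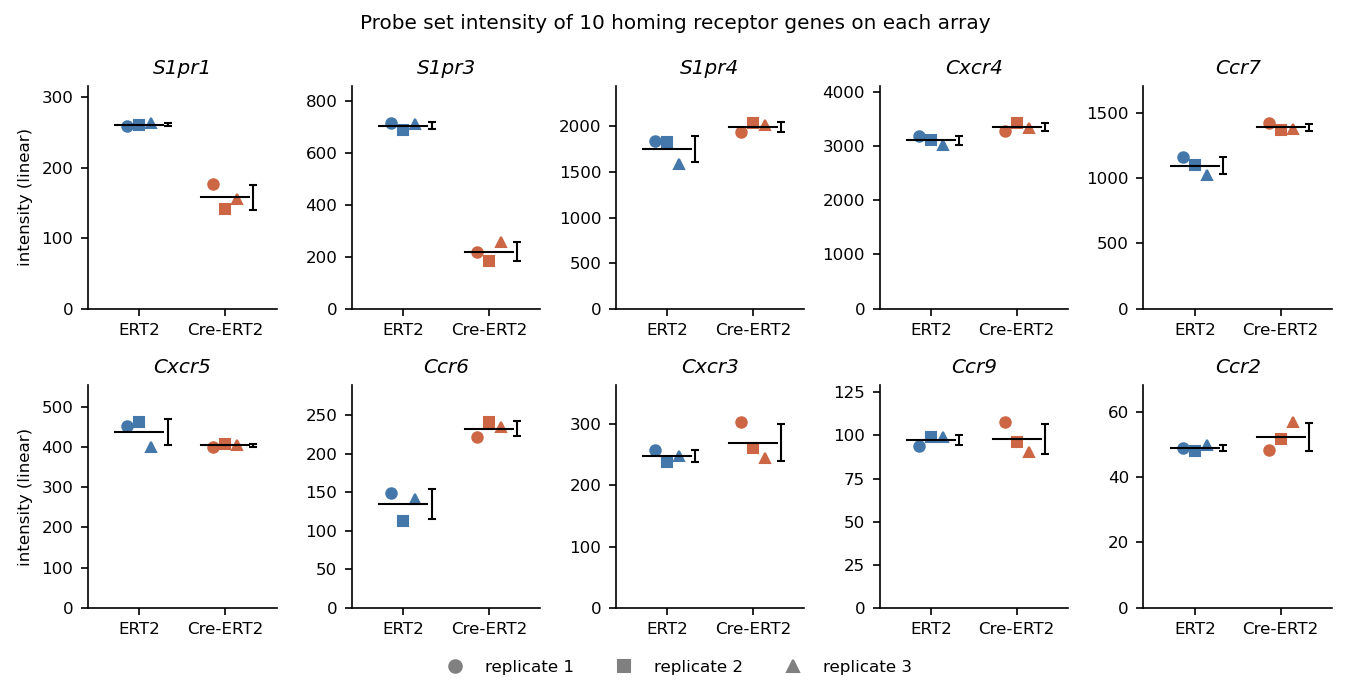
Intensity (linear scale from 0) of each receptor's probe set on the 3 ERT2 (blue) and 3 Cre-ERT2 (orange) arrays. Horizontal lines are group means and the bars beside them are 1 SD. S1pr1 and S1pr3 read lower and Ccr6 and Ccr7 higher on every Cre-ERT2 array, while the groups overlap for Cxcr5, Cxcr3, Ccr9 and Ccr2.

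Sox4 is a DNA-binding factor, so the upstream sequences of the receptors that moved most are shown. RefSeq promoter windows (build GRCm38.p6) matched 7 of the 10 receptors with 8 windows; Cxcr5, Ccr7 and S1pr1 were not matched. The 250 bases before the annotated start were searched on both strands for the SOX-type cores ACAAAG and ACAATG and for the FOXO core GTAAACA. The SOX-type cores share the letters ACAA. Over 32851 such windows in the RefSeq table, 16.5% held ACAAAG, 10.7% held ACAATG and 3.17% held GTAAACA. The windows of S1pr3 and Ccr6, written 5′ to 3′ along the gene, held none of these letters:
S1pr3, chr13:51408368-51408617, plus strand: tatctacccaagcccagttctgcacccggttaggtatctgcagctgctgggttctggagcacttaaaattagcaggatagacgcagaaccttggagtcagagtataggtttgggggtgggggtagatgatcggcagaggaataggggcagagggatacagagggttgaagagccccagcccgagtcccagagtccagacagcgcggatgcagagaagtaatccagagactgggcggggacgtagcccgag
Ccr6, first listed start, chr17:8235793-8236042, plus strand: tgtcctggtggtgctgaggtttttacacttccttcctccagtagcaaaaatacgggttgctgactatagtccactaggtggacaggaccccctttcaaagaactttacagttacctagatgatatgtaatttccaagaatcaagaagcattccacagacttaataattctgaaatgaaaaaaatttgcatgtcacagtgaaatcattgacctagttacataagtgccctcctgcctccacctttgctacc
Ccr6, second listed start, chr17:8242276-8242525, plus strand: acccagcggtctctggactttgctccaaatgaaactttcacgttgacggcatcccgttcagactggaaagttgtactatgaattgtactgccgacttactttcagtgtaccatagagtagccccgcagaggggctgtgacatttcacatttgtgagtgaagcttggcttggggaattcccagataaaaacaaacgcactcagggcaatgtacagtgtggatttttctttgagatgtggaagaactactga

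A SOX-type core stood in 3 windows, those of Cxcr3, Ccr9 and Ccr2, which are receptors that were not called. The windows of Cxcr4 and S1pr4, also not called, held none, and the called S1pr1 and Ccr7 had no window to search. Each core is in capitals within 30 bases, and each reads on the strand opposite to the gene:
Cxcr3, chrX:101734292-101734321, minus strand: aagaactgcaggCTTTGTaacagtcccaag
Ccr9, chr9:123767016-123767045, plus strand: actctgtgtgtaCATTGTccacactgaaga
Ccr2, chr9:124102031-124102060, plus strand: tttttttttttgCTTTGTtttgtttttctt
The cores of Cxcr3 and Ccr2 are ACAAAG and that of Ccr9 is ACAATG, read in reverse complement. GTAAACA was in 0 of the 8 windows. A match describes the letters of these windows only. The share of all windows that hold either SOX-type core was not computed, and cores were not tested against calls.

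S1pr3, a sphingosine-1-phosphate receptor that couples to several G protein families and is better known from vessels and heart than from B cells, fell most. Its probe set (10405179) read 716, 691 and 713 on the ERT2 arrays and 219, 184 and 257 on the Cre-ERT2 arrays. The groups did not overlap, and the Cre-ERT2 arrays were more scattered, with means of 707 ± 13.7 (SD, n = 3) and 220 ± 36.7 (SD, n = 3). The Cre-ERT2 mean was 31.1% of the ERT2 mean, a 3.21-fold fall. On the log2 scale this is -1.69 (SE 0.118, limma adjusted p = 0.000434), and 61 of 19938 genes had a more negative one. In these bulk samples fewer cells of a type and less RNA per cell cannot be told apart.

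S1pr1, the receptor through which lymphocytes leave marrow and lymphoid organs, also fell. Its probe set (10501586) read 258, 260 and 263 on the ERT2 arrays and 177, 141 and 156 on the Cre-ERT2 arrays. The 3 ERT2 values were nearly equal, and the nearest Cre-ERT2 value was well below them. The mean went from 260.5 ± 2.24 (SD, n = 3) to 158 ± 17.9 (SD, n = 3), or 60.6% of the ERT2 mean, a difference of -0.73 (SE 0.0848, limma adjusted p = 0.00405).

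S1pr4, a relative found mainly on blood cells, did not pass the threshold. Its probe set (10371217) read 1838, 1826 and 1585 on the ERT2 arrays and 1934, 2037 and 2016 on the Cre-ERT2 arrays. The third ERT2 array was the low one, and the groups did not overlap. The difference was 0.19 with a 95% interval from 0.02 to 0.36 (limma adjusted p = 0.230). The other 2 receptors of the family had differences near 0. For S1pr2, known for confining B cells to germinal centres, it was 0.04 with an interval from -0.10 to 0.18, and for S1pr5, known from NK cells, it was -0.00371 with an interval from -0.14 to 0.14.

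Cxcr4, the marrow retention receptor, was not called. Its probe set (10357472) read 3187, 3102 and 3021 on the ERT2 arrays and 3272, 3419.6 and 3338 on the Cre-ERT2 arrays. Every Cre-ERT2 array was above every ERT2 array, by a small margin, with means of 3103 ± 82.7 (SD, n = 3) and 3343 ± 74.1 (SD, n = 3). The difference was 0.11 (SE 0.0476, limma adjusted p = 0.328). Its 95% interval ran from -0.00701 to 0.22.

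Ccr6, the receptor for CCL20 on mature B cells and some T cells, rose most among the 10. Its probe set (10441633) read 149.7, 112 and 141 on the ERT2 arrays and 222, 241 and 235 on the Cre-ERT2 arrays. The second ERT2 array was the lowest, and the groups were well apart. The mean rose 1.73-fold, from 134 ± 19.6 (SD, n = 3) to 233 ± 9.52 (SD, n = 3), a difference of 0.80 (SE 0.110, limma adjusted p = 0.00808), and 170 of 19938 genes had a larger one.

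Ccr7, which draws lymphocytes into lymph nodes and the T-cell zones, rose less. Its probe set (10390763) read 1162, 1102 and 1028 on the ERT2 arrays and 1422, 1369.7 and 1377 on the Cre-ERT2 arrays. The groups did not overlap, and the mean was 1.27-fold higher in Cre-ERT2 cells. The difference was 0.34 (SE 0.0595, limma adjusted p = 0.0215). This call ended with 1 array left out: limma adjusted p was 0.0502 without E2, 0.0857 without C1, 0.0786 without C2 and 0.0903 without C3, which left 1 receptor higher. S1pr3, S1pr1 and Ccr6 kept their calls with any 1 of the 6 arrays left out.

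**Figure D2:**
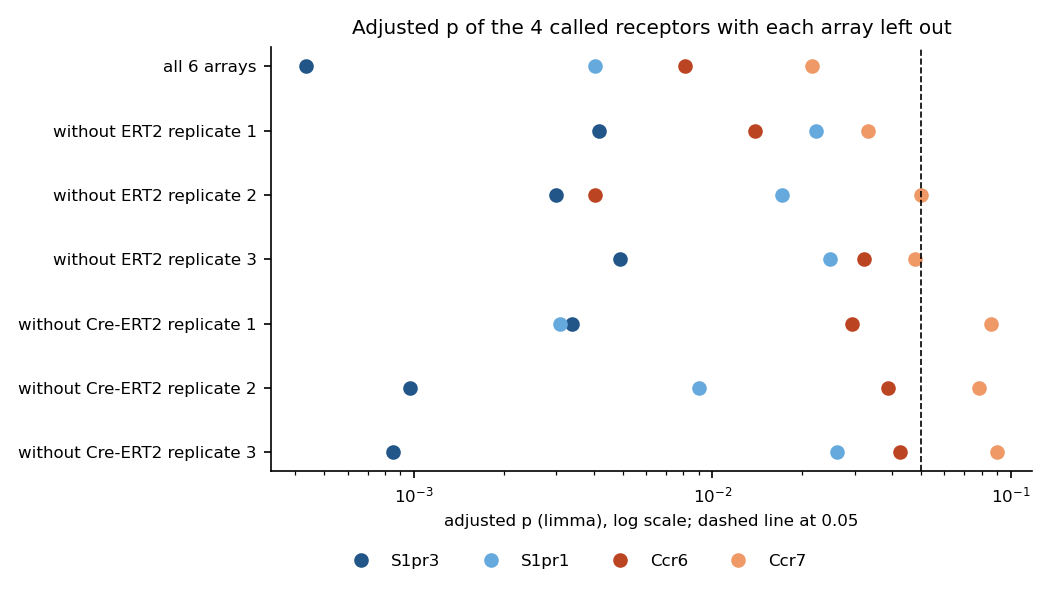
Adjusted p (limma, log axis) of the 4 called receptors with all 6 arrays and with each array left out in turn, against a dashed line at 0.05. S1pr3 stays at 0.00489 or below, S1pr1 at 0.0261 or below and Ccr6 at 0.0427 or below, while Ccr7 crosses the line in 4 of the 6.

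Cxcr5, which leads B cells into follicles, was not called. Its probe set (10592888) read 452, 461 and 401 on the ERT2 arrays and 400.0, 408 and 404 on the Cre-ERT2 arrays. The third ERT2 array lay among the Cre-ERT2 values, and the difference was -0.11 with a 95% interval from -0.27 to 0.04 (limma adjusted p = 0.480).

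The receptors known from inflamed tissue and gut showed no difference beyond the spread of their arrays. Cxcr3 (10606058), a receptor of activated T cells, read 258, 238 and 249 on the ERT2 arrays and 303, 261 and 245 on the Cre-ERT2 arrays, a difference of 0.11 with an interval from -0.10 to 0.32. Ccr9 (10590620), the gut and thymus homing receptor, read 94.1, 98.9 and 99.0 on the ERT2 arrays and 108, 96.2 and 90.5 on the Cre-ERT2 arrays, a difference of 0.00790 whose sign turned under other scalings. Ccr2 (10590631), the monocyte receptor, read 48.8, 47.9 and 49.9 on the ERT2 arrays and 48.1, 51.6 and 56.7 on the Cre-ERT2 arrays, a difference of 0.09 with an interval from -0.08 to 0.25. In each of the 3 the groups overlapped, and limma adjusted p was 0.630 or more. Ccr9, Ccr2, Cxcr3, Ccr6 and S1pr1 were the 5 receptors whose mean over the arrays lay below the median of all probe sets. Whether the values of these 5, the called Ccr6 and S1pr1 among them, stand above background was not tested.

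**Figure D3:**
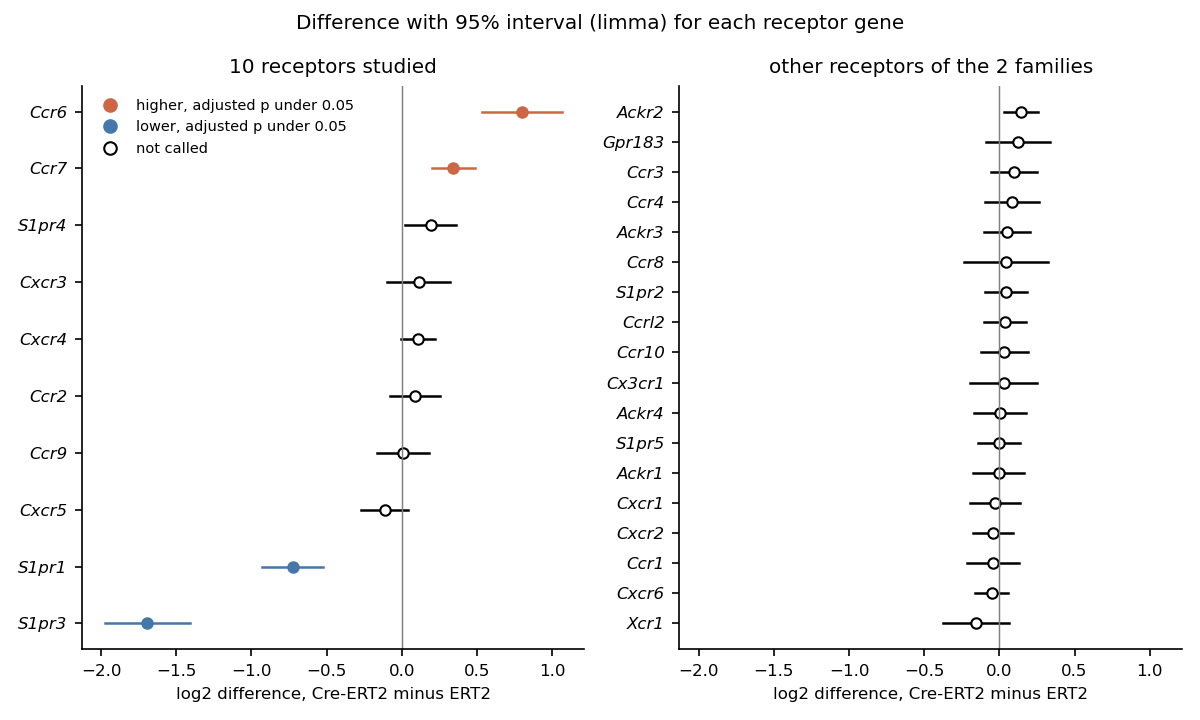
Difference of log2(intensity + 1) between Cre-ERT2 and ERT2 cells with its 95% interval from limma, for the 10 receptors (left) and 18 further chemokine and sphingosine-1-phosphate receptors (right). Filled points have adjusted p under 0.05. On the left S1pr3, S1pr1, Ccr7 and Ccr6 are filled, and the interval of S1pr4, not called, also leaves out 0 (0.02 to 0.36). The points on the right lie between -0.15 and 0.14, and the interval of Ackr2, not called, leaves out 0 (0.03 to 0.26).

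Of the other chemokine, atypical chemokine and sphingosine receptors, 18 of 19 were measured, and limma called 0 of them, with 1 at unadjusted p under 0.05 (20.1% of all genes). That gene was Ackr2, a scavenging receptor for inflammatory chemokines, with a difference of 0.14 (limma adjusted p = 0.179). Their median difference was 0.03. Ackr3, the atypical receptor that takes up CXCL12 beside CXCR4, had a difference of 0.05 with an interval from -0.10 to 0.20. Gpr183, an oxysterol receptor that positions B cells in follicles, had a difference of 0.12 with an interval from -0.09 to 0.33. The 10 and the 18 were listed with earlier results of these data known. The call of a receptor among the 10 and its absence in these 18 was not tested as a difference.

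**Figure D4:**
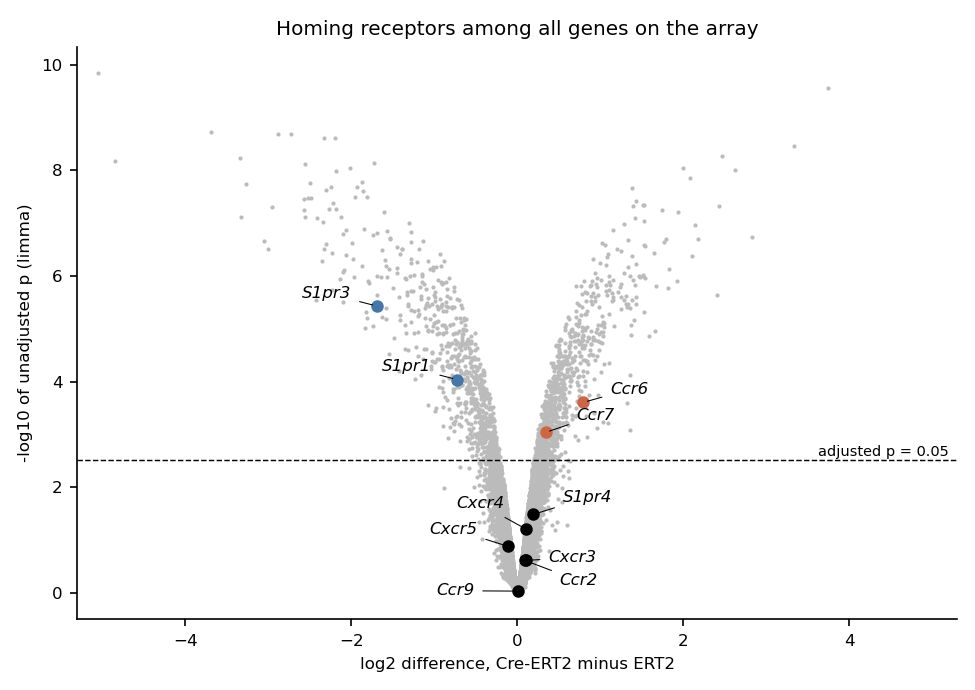
Each of 19938 genes by its difference (horizontal, log2 scale) and -log10 of its unadjusted p from limma (vertical), with the 10 receptors marked. The dashed line is the largest unadjusted p that corresponds to adjusted p under 0.05. S1pr3, S1pr1, Ccr6 and Ccr7 lie above it and the other 6 receptors below it.

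Among the ligands of the 10 receptors, Ccl25, the CCR9 ligand of thymus and gut, was the 1 of 11 measured that rose, and 0 fell, where 4.38% and 3.72% of all genes did. At unadjusted p under 0.05 stood 2 of the 11, near the share of all genes (20.1%). Its probe set (10569962) read 730.5, 842 and 655 on the ERT2 arrays and 1092, 1252 and 1260 on the Cre-ERT2 arrays, without overlap. The difference was 0.70 (SE 0.106, limma adjusted p = 0.0125). A second Ccl25 probe set (10569958) gave a smaller difference of 0.28, which was not called (limma adjusted p = 0.178). On the ERT2 arrays the second was the brighter (mean 762 against 742), and on the Cre-ERT2 arrays the first was (1201 against 922). The first thus came to represent the gene through its Cre-ERT2 values, a choice that favours a rise. The call of the first ended without E1 (limma adjusted p = 0.0584), C2 (0.0563) or C3 (0.0607). The median difference of the ligands was -0.00531. Cxcl12, the CXCR4 ligand, had a difference of -0.03 with an interval from -0.14 to 0.09, and Cxcl10, a CXCR3 ligand, one of 0.21 (limma adjusted p = 0.193). Ccl19, a CCR7 ligand, and Ccl7, a CCR2 ligand, had differences of 0.07 and 0.05. Further Ccl19 probe sets gave differences from 0.10 to 0.11 and were not called either. Ccl21a was not analysed here.

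Genes that make, degrade or move sphingosine-1-phosphate were not called: limma called 0 of 11, with 4 at unadjusted p under 0.05 (20.1% of all genes) and a median difference of 0.01. Sgpp1, a phosphatase that removes the phosphate, read 3097, 3269.6 and 3056 on the ERT2 arrays and 3532, 3721 and 3719 on the Cre-ERT2 arrays, without overlap, a difference of 0.22 (limma adjusted p = 0.0661). Sgpl1, the lyase that destroys the lipid, had a difference of -0.17 (limma adjusted p = 0.110), Acer3, an alkaline ceramidase, one of 0.24 (0.105) and Plpp3, a surface lipid phosphatase, one of -0.33 (0.210). The kinases Sphk1 and Sphk2, which make the lipid, had differences of -0.02 and 0.01, the latter turning sign under other scalings. Among the alternative settings, Sgpp1 passed the threshold under 5, Sgpl1 under 4 and Acer3 under 2.

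Of 28 measured genes of signalling beneath the receptors, 24 were not called, 2 were higher (4.38% of all genes) and 2 were lower (3.72% of all genes), with a median difference of 0.00317. An unadjusted p under 0.05 (limma) was found for 13 of the 28, where 20.1% of all genes had one. Rgs18, a GTPase-activating protein that shortens Gi and Gq signals, fell the most: it read 2631, 2815 and 2601 on the ERT2 arrays and 757, 705 and 743 on the Cre-ERT2 arrays. The groups were far apart, with a difference of -1.87 (SE 0.0559, limma adjusted p = 2.59e-05). Arrb1, an arrestin that uncouples and internalises receptors, read 1432, 1412 and 1270.3 against 862, 822 and 799, a difference of -0.73 (SE 0.0649, limma adjusted p = 0.00125). Grk5, a kinase that marks active receptors for arrestin, rose by 0.46 (SE 0.087, limma adjusted p = 0.0293), and Plcb2, a phospholipase driven by G proteins, rose by 0.47 (SE 0.074, limma adjusted p = 0.0149).

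Rgs18 and Arrb1 kept their calls with any 1 of the 6 arrays left out. Grk5 lost its call without E1 (limma adjusted p = 0.107), E3 (0.104), C1 (0.0849), C2 (0.114) or C3 (0.102). Plcb2 lost its call without E1 (0.0504), C1 (0.0620), C2 (0.0670) or C3 (0.0578). Gnai2, the main inhibitory G protein of chemokine receptors, had a difference of -0.13 and was not called (limma adjusted p = 0.177). Grk2 and Rgs10 were not analysed here.

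**Figure D5:**
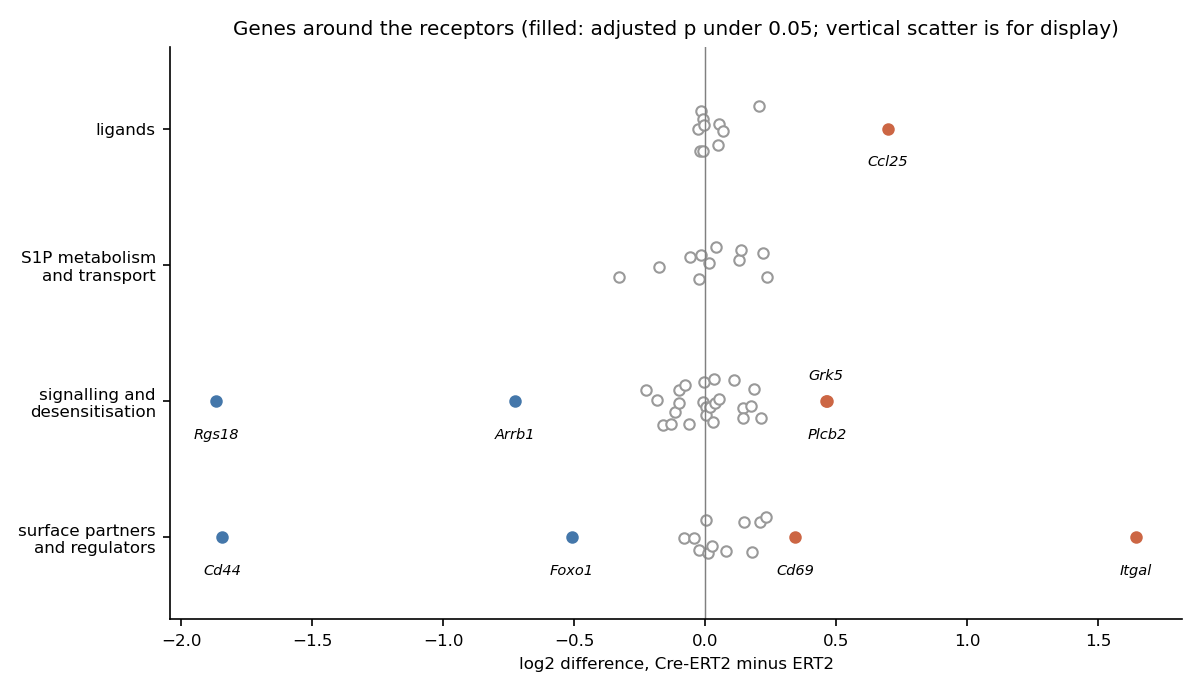
Difference of log2(intensity + 1) between Cre-ERT2 and ERT2 cells for the measured genes of 4 lists: ligands (11 genes), metabolism and transport of sphingosine-1-phosphate (11), signalling and desensitisation (28) and surface partners and regulators (15). Filled, named points have adjusted p under 0.05 and height within a row has no meaning. Rgs18 and Cd44 lie farthest to the left and Itgal farthest to the right.

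Surface partners and regulators of homing had 2 of 15 measured genes higher (4.38% of all genes) and 2 lower (3.72% of all genes), with a median difference of 0.03. An unadjusted p under 0.05 (limma) was found for 8 of the 15, where 20.1% of all genes had one. Cd69, a membrane protein known to bind S1PR1 and take it off the surface, read 2613, 2721 and 2585 on the ERT2 arrays and 3219.9, 3379.5 and 3452 on the Cre-ERT2 arrays. It was higher on every Cre-ERT2 array, by 0.34 (SE 0.0511, limma adjusted p = 0.0112). That call ended without E1 (limma adjusted p = 0.0574), C2 (0.0598) or C3 (0.0678). Foxo1, a transcription factor known to act on homing receptor genes in lymphocytes, read 3030.0, 3089.8 and 2824 on the ERT2 arrays and 2023, 2158 and 2101 on the Cre-ERT2 arrays. It fell by 0.51 (SE 0.0562, limma adjusted p = 0.00317), and Klf2, a factor known to activate S1pr1, had a difference of -0.08 with an interval from -0.21 to 0.05.

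Among the adhesion genes of that list, Itgal and Cd44 were called. Itgal, the alpha chain of an integrin that binds ICAM proteins, read 506, 487 and 420.3 on the ERT2 arrays and 1490.0, 1511 and 1414 on the Cre-ERT2 arrays, a rise of 1.64 (SE 0.0799, limma adjusted p = 0.000115). Its beta chain Itgb2 had a difference of 0.18 and was not called (limma adjusted p = 0.117). Cd44, which binds hyaluronan in marrow, read 650.1, 763 and 650.4 on the ERT2 arrays and 196, 189.6 and 185 on the Cre-ERT2 arrays, a difference of -1.84 (SE 0.0761, limma adjusted p = 6.95e-05). Itga4, the integrin chain that anchors precursors to VCAM-1, had a difference of 0.23 (limma adjusted p = 0.134). Itgb1, Itgb7, Selplg, Icam1 and Vcam1 were not called either, with adjusted p from 0.0943 (Icam1) to 0.952 (Itgb7).

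The genes most like S1pr3, S1pr1 and Ccr6 in their pattern were sought among 19937 other genes by the root mean square difference of log2 values centred on their mean over 6 arrays. Nearest to S1pr3 were Trpc4 (0.0854), Ttpa (0.0949) and Pla2g7 (0.123), with differences of -1.69, -1.55 and -1.78. Nearest to S1pr1 were Kctd17 (0.0492), Elk1 (0.0525) and Polm (0.0651), with differences of -0.67, -0.82 and -0.62. Nearest to Ccr6 were Ephb4 (0.066), Zfp111 (0.0661) and Rnf125 (0.0868), with differences of 0.75, 0.83 and 0.73. All 9 were called by limma with all 6 arrays (adjusted p from 0.000238 to 0.0273). Of these, 4 lost the call with an array left out: Kctd17 without E1 (0.0739), E3 (0.0709) or C3 (0.0788), Polm without E1 (0.0674), E3 (0.0619) or C3 (0.0678), Zfp111 without C2 (0.0537) or C3 (0.0563), and Rnf125 without E1 (0.0601), C1 (0.0837), C2 (0.0762) or C3 (0.108). With 2 groups of 3 arrays this likeness is mostly the size of the difference between groups. The calls of the 9 thus follow largely from how they were picked and are no further result.

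The protein-coding neighbours of S1pr3, S1pr1 and Ccr6 in the gene table were measured in 6 of 6 cases, and limma called 0 of them (8.10% of all genes), with 1 at unadjusted p under 0.05 (20.1% of all genes). Over all 10 receptors 3 of 17 measured neighbours were called, all higher: both neighbours of S1pr4 and 1 of Cxcr5. They are named after their values were seen. Gna15, which encodes a G protein alpha subunit of blood cells, rose by 0.75 (SE 0.0575, limma adjusted p = 0.000653) and Ncln, a membrane protein of the endoplasmic reticulum, by 0.25 (limma adjusted p = 0.0410). Ncln lost its call without E1 (0.130), E3 (0.103), C1 (0.143), C2 (0.154) or C3 (0.114) and with replicate number as a block (0.0673). Bcl9l, beside Cxcr5, rose by 0.29 (limma adjusted p = 0.0297), and lost its call without E1 (0.0625), E2 (0.0636), E3 (0.0836), C1 (0.111), C2 (0.119) or C3 (0.0789).

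Several of the receptors are better known from other cells, so markers of those cells were read beside them. Counts here and in the next paragraph stand against 4.38% of all genes higher, 3.72% lower and 20.1% at unadjusted p under 0.05 (limma). Of mature B-cell markers, carried by cells rich in Ccr6, Ccr7 and Cxcr5, 0 of 5 rose and 1 fell (Cd22, by 0.41), and their summed intensity lay between 2088 and 2199 on ERT2 arrays and between 1820 and 1876 on Cre-ERT2 arrays. A sum over probe sets follows its brightest members: Cd22 alone went from a mean of 1439.8 to 1083, while Ms4a1, Cr2, Cd40 and Fcer2a were not called. Of T-cell markers 1 of 6 rose (Cd5, by 0.56) and 0 fell, with sums from 1200.2 to 1276 and from 1328 to 1457, of which the mean of Cd5 went from 385 to 566. Of NK-cell markers limma called 0 of 6 (0 at unadjusted p under 0.05), with sums from 598 to 633 and from 599.7 to 649.9. Cd3e, Cd3d and Cd3g were not called. Unadjusted p (limma) was under 0.05 for 1 of the 5 mature B-cell markers and 2 of the 6 T-cell markers.

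Of myeloid markers 1 of 10 rose (Lyz2, by 1.40) and 1 fell (Itgam, by 0.49), where 4.38% and 3.72% of all genes did. Their sums ran from 1982 to 2089 and from 2427 to 2618, of which the mean of Lyz2 went from 351 to 932. Itgam lost its call without E1 (limma adjusted p = 0.0574) or C2 (0.0558). Among the 6 plasma-cell markers, 3 rose and Sdc1 fell by 0.62, where 4.38% of all genes rose and 3.72% fell. Their sums ran from 14924 to 16219 and from 19856 to 20622. The mean of Xbp1 went from 8161 to 10623, that of Jchain from 395 to 1745 and that of Sdc1 from 916 to 594. The risen ones were Jchain (2.15), Xbp1 (0.38) and Mzb1 (0.35). All 6 plasma-cell markers had an unadjusted p under 0.05 (limma), where 20.1% of all genes did. Of the 2 not called, Irf4 had a difference of 0.22 (limma adjusted p = 0.0571) and Prdm1 one of -0.15 (0.275). Mzb1 lost its call without E2 (0.0834), E3 (0.0670), C1 (0.133), C2 (0.140) or C3 (0.129), under median centring (0.0539) and with replicate number as a block (0.0549). Of stromal and endothelial markers 1 of 6 rose (Pecam1, by 0.33), with sums from 2387 to 2538.5 and from 2713 to 2859. The mean of Pecam1 went from 1084 to 1361, and its call ended without E1 (0.0516), C1 (0.0643), C2 (0.0801) or C3 (0.0750). Of dendritic cell markers 1 of 6 rose (Flt3, by 0.34), with sums from 1324 to 1358 and from 1400.5 to 1464. The mean of Flt3 went from 328 to 414. Flt3 lost its call with any array left out: 0.110 without E1, 0.0516 without E2, 0.0928 without E3, 0.130 without C1, 0.152 without C2 and 0.0890 without C3. With cyclic loess its adjusted p was 0.0513, and with median centring 0.0528. Of erythroid markers limma called 0 of 2 (0 at unadjusted p under 0.05). Of pre-B markers 0 of 9 rose and 2 fell (Il7r, by 0.93, and Rag1, by 0.89), where 4.38% and 3.72% of all genes did. Their sums ran from 76248 to 76804 and from 70472 to 71824, of which the mean of Il7r went from 6617 to 3481. Of the 9 pre-B markers 3 had an unadjusted p under 0.05 (limma). So had 3 of the 10 myeloid markers, and 1 of 6 in both the stromal and endothelial list and the dendritic list. No marker was listed at 0 on any array, and the part of other cells in the receptor differences was not tested.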

How the data were processed

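Total RNA of 6 samples was hybridised to Affymetrix arrays, 1 per sample. The authors deposited 1 intensity per probe set and array, made with RMA per the submitters' processing notes; RMA removes background, makes the arrays' distributions alike and summarises probes. Neither its version nor a genome build is given in the sources used here. The deposited intensities run from 6.27 to 26714, a linear scale, so log2(intensity + 1) was taken. A change of every gene in one direction would be lost where RMA makes the distributions alike.

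The platform annotation named 1 gene for 21789 of 35556 probe sets, several for 1621 and none for 12146, and 21698 of the first kind matched the gene table (assembly GRCm38.p6). A gene was represented by its brightest probe set. The test was lmFit with eBayes from limma 3.58.1 (R 4.3.3, without covariates), adjusted over all probe sets, and was tested on simulated data.

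The receptors, gene lists and tests were chosen with earlier results of these data known. Named genes were the receptors, Sox4, up to 4 called members of each list by smallest p, ligand and sphingosine-1-phosphate genes, and the 3 nearest genes of the 3 receptors with the smallest p; any other gene named was picked with its values in view. Alternatives were an intensity trend or robust eBayes, only probe sets above the median intensity, median centring, quantile normalization, cyclic loess, a pseudocount of 16, array weights, a block for replicate number, averaging the probe sets of a gene, and each array left out.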

Additional observations from a re-analysis of the deposited data

How the results depend on the processing

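Of 155 values of the receptors under alternatives 145 kept direction and side of the threshold; 4 were the calls Ccr7 lost with an array left out, and 6 were sign changes of Ccr9. Ccr9 became -0.00336 under median centring, -0.0152 under a further quantile normalization, -0.00786 under cyclic loess and -0.0144 with array weights, and ran from -0.0602 to 0.0639 with arrays left out. Sphk2 became -0.018 under quantile normalization and -0.0232 under cyclic loess, and ran from -0.0118 to 0.0445 with arrays left out. With only probe sets above the median intensity, which hold 5 of the 10 receptors, 1 was higher and 1 lower. With single arrays left out 1 to 2 receptors were higher and 2 lower in each case, and probe sets called higher numbered 606 to 1319 and lower 654 to 883, against 1143 and 1009. Array weights gave 2415 and 1612. The replicate block left the receptors at 2 higher and 2 lower and gave 959 and 877 probe sets. Deviations of same-numbered samples correlated at 0.205, 0.344 and -0.0491 across probe sets. ERT2 replicates 1 and 2 correlated best with the Cre-ERT2 replicate of their own number, and ERT2 replicate 3 with Cre-ERT2 replicate 1 (0.325). With 3 arrays a group, centred on the group mean, these values cannot decide whether same-numbered samples were paired. Of the other named genes 14 kept their direction but lost a call under some setting, and Sgpp1, Sgpl1 and Acer3 gained one. The cause of these changes was not tested. The number of arrays sets the limit: the median standard error of a gene was 0.0643 on the log2 scale, against 0.0686 for Ccr2 and 0.0733 for Ccr9.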
